A study of Mus musculus with 4 samples.

Results

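Genes for the breakdown of branched-chain amino acids and for the use of ketone bodies were followed in the adult mouse heart. The 28 genes were chosen by symbol, from transamination through the branched-chain dehydrogenase and its downstream steps to propionate and ketone body enzymes, out of 23420 genes listed in the count files. All 28 symbols were found. The series measured polyadenylated RNA in 4 libraries of unmanipulated wild-type C57BL/6J mice, labelled male and 12 weeks old, with no treated or control group. Tissue is labelled as whole heart, but by the extraction protocol in the labels RNA came from the ventricular apex. The questions open to these data are how the genes of the pathway stand to each other within a heart, and how much each varies between hearts.

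Leucine, isoleucine and valine are first transaminated to branched-chain keto acids. The branched-chain keto acid dehydrogenase then commits them to oxidation in mitochondria. A kinase switches that complex off by phosphorylating its E1 alpha subunit, and a phosphatase switches it on again. Leucine yields acetyl-CoA and acetoacetate, isoleucine acetyl-CoA and propionyl-CoA, and valine propionyl-CoA, which enters the citric acid cycle as succinyl-CoA. The heart also takes up ketone bodies made by the liver and oxidises them by a short route whose last enzyme, the thiolase Acat1, is shared with isoleucine breakdown.

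Libraries held 10523709 to 15359296 reads assigned to genes. Counts scaled to that total are given as CPM, and levels of different genes are compared only as CPM per kilobase of exon. Where no read was counted, counting error still allows 3 counts, worth 0.195 to 0.285 CPM in the 4 libraries. Libraries 2 and 3 went against their label in sex-linked transcripts, with Xist at 5, 1897, 1806 and 19 counts and the Y-linked Ddx3y at 341, 0, 1 and 437 counts in libraries 1 to 4. By these counts the 4 libraries are not all of 1 animal, but the labels do not state whether each is of a separate animal. Below, hearts stands for these libraries. The p-values for spread concern differences between them, which may in part be technical and mix libraries of both sex-linked patterns. Those for ratios between genes compare gene levels within a library, over the same 4 libraries. The 6 cardiomyocyte markers summed to between 81757 and 92631 CPM. Of the other cell types, 5 fibroblast markers summed to between 449 and 499.96 CPM, 4 endothelial markers to between 822 and 883 CPM and 4 macrophage markers to between 106 and 119 CPM. Adipocyte (1.11 to 3.52 CPM), hepatocyte (0.431 to 0.555 CPM) and lymphocyte markers (0.570 to 1.44 CPM) had few counts. The most for a single gene was 16 counts (Cidec, library 3), and Alb had 0 counts in 4 of 4 libraries.

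Together the 28 genes took 3037, 2975.5, 3017 and 3150.5 CPM in libraries 1 to 4, a mean of 3045 ± 74.8 CPM (SD, n = 4) or 0.305% of gene counts. Without libraries 2 and 3 the mean was 3094 CPM. Oxct1 alone gave 23.0% of that sum, Acat1 12.8%, Bckdha 10.6% and Ivd 7.92%. These are shares of reads and grow with transcript length. Per kilobase of exon, Oxct1 led at 189 ± 8.98 CPM per kilobase (SD, n = 4), above 99.0% of the 17236 genes with a length and at least 1 count. Bckdha followed at 169 ± 8.49, Acat1 at 103 ± 3.44, Hsd17b10 at 83.6 ± 5.50 and Ivd at 43.8 ± 1.36 CPM per kilobase. On this scale the ranges of these 5 genes over the 4 libraries did not overlap with one another. Per kilobase of coding length Oxct1 still led (448 CPM per kilobase), but Acat1 (305) stood above Bckdha (240.15) and Ivd (189.6) above Hsd17b10 (133). With only the exon bases that no other listed gene shares as the length, a setting chosen after seeing the data, Bckdha (442 CPM per kilobase) would stand above Oxct1 (216). All counts were kept in that setting, so its values hold only if no counted read fell on shared bases. At the other end stood Acat2, Bcat1 and Bdh2, each below 1 CPM per kilobase. In between lay 20 genes from 4.55 CPM per kilobase (Mccc1) to 38.0 CPM per kilobase (Mcee). Of 27 neighbouring pairs in the whole order, 12 had ranges that overlapped, among them each step from Mut (15.9 ± 1.504 CPM per kilobase) through Aldh6a1, Bdh1, Dbt, Acadsb, Ppm1k, Pcca, Mmab and Bckdhb to Hibadh (10.2 ± 0.276 CPM per kilobase).

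**Figure D1:**
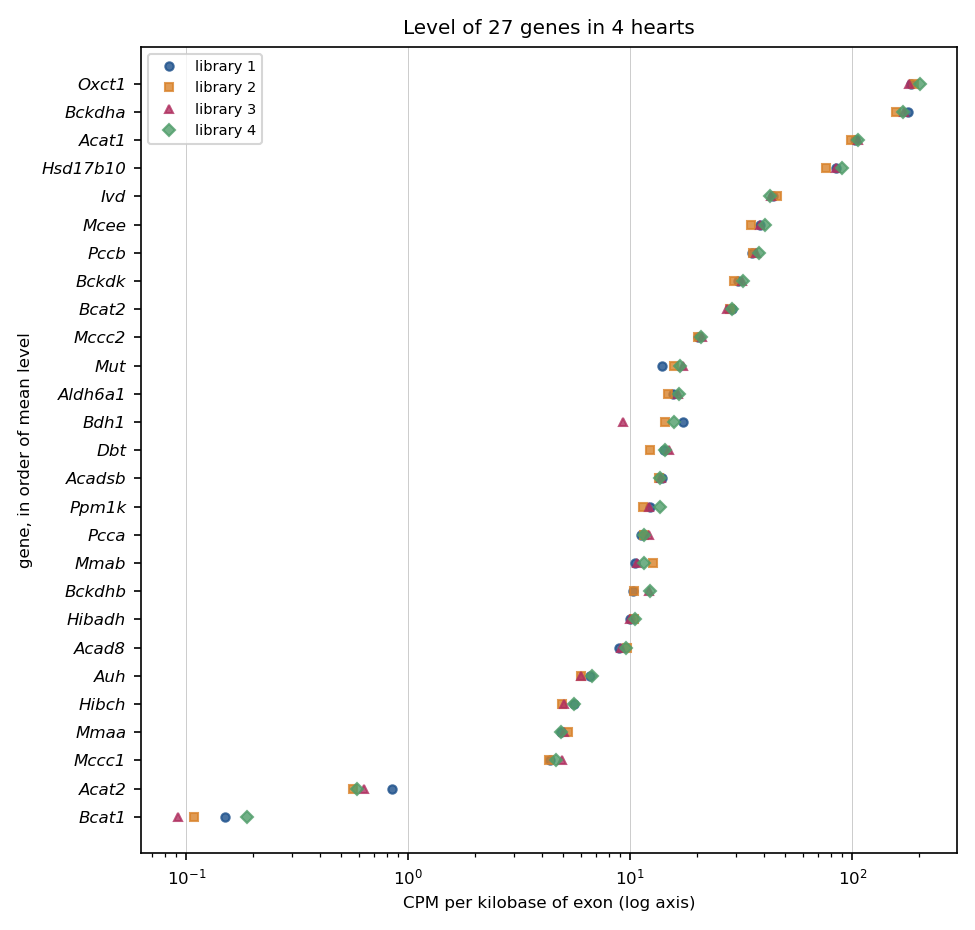
Level of 27 of the 28 genes as CPM per kilobase of exon (horizontal log axis), in order of mean level, with 1 point per library; Bdh2 is left out because it was at 0 in libraries 1 and 3. Oxct1, Bckdha and Acat1 lie above 98 CPM per kilobase in each library, and Acat2 and Bcat1 lie below 1.

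Most of these genes differed little between hearts. Of the 28 genes, 27 averaged 1 CPM or more and were tested, and 0 were called more variable than genes of similar abundance (edgeR quasi-likelihood, Benjamini-Hochberg adjusted p under 0.05 over all tested genes), where 0.445% of 12360 tested genes were called. The limma-voom and DESeq2 alternatives also called 0, and 1 gene, Bdh1, had an unadjusted p under 0.05, as did 6% of all tested genes. The median coefficient of variation of the 27 genes was 5.37%, and 24 of them (88.9%) stayed under 10%. Over all tested genes the median was 9.60% and 52.3% stayed under 10%, a figure that includes many genes of lower counts. The variance ratio sets each gene's spread against the trend at its own abundance, and its median log2 value was -0.79 for the 27 genes and -0.23 over all tested genes. In 24 of the 27 the highest library exceeded the lowest by 1.246-fold (Mut) or less. The steadiest was Acadsb, at 99.8, 96.8, 98.8 and 97.9 CPM (coefficient of variation 1.30%). The 3 exceptions were Bcat1 and Acat2, on few counts, and Bdh1. Library 2 was the lowest for 13 of the 27 genes (48.1%) and for 30.7% of all tested genes, and library 4 the highest for 12 (44.4%) and for 27.01% of all tested genes.

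**Figure D2:**
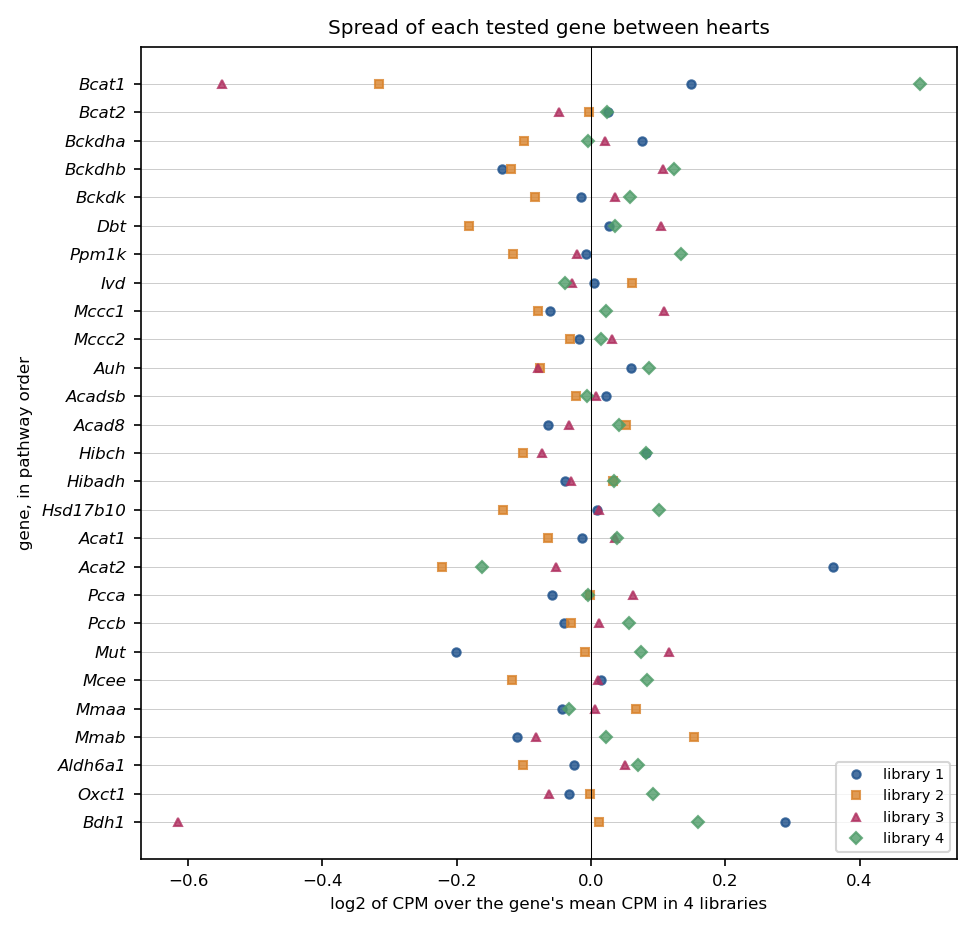
Spread between hearts of the 27 tested genes: log2 of each library's CPM over the gene's own mean (horizontal axis), with 1 point per library and genes in pathway order. Points lie close to 0 except for Bcat1 (9 to 27 counts), Acat2 (17 to 31 counts) and Bdh1, which is low in library 3.

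**Figure D3:**
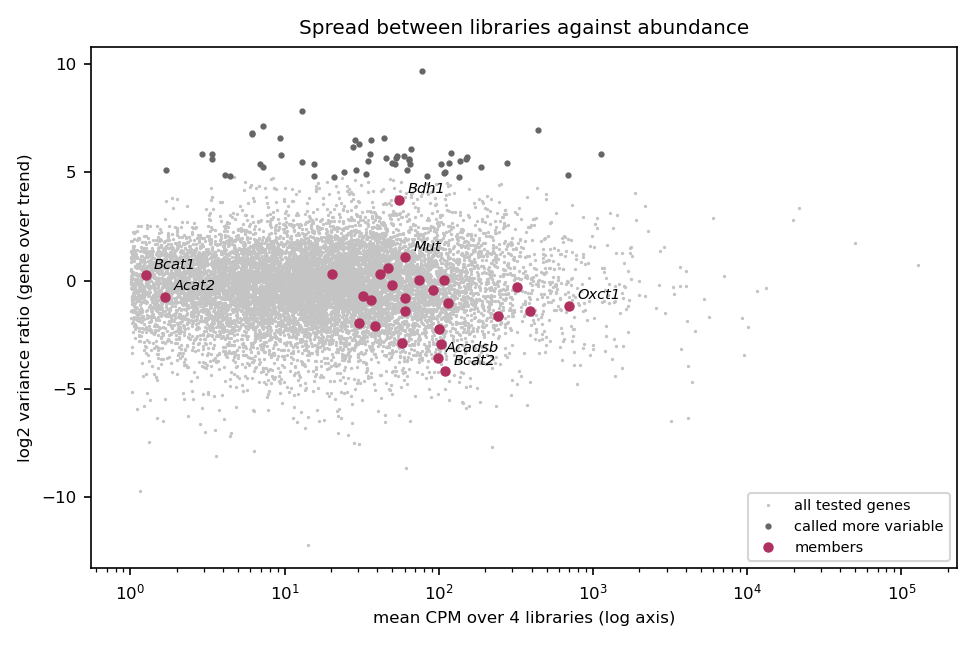
Log2 variance ratio of each gene over the abundance trend (vertical axis) against mean CPM (horizontal log axis) for 12360 tested genes in light grey, the 55 called more variable in dark grey and the 27 tested members in red. Bdh1, at 3.74, is the highest of the members and lies below the called genes.

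Transcripts for transamination were nearly all of the mitochondrial form. Bcat2, the mitochondrial branched-chain aminotransferase (chromosome 7, 45570153 to 45589711, GRCm38), had 112, 110.2, 107 and 112 CPM in libraries 1 to 4, a spread of 2.37%. Bcat1, the cytosolic form known from brain, had 20, 14, 9 and 27 counts, or 1.39, 1.01, 0.855 and 1.76 CPM. The exact Poisson limits of 95% for Bcat1 overlapped, from 0.391 to 1.62 CPM in library 3 and from 1.16 to 2.56 CPM in library 4. On so few counts, variation between libraries cannot be told apart from counting error. Per kilobase of exon Bcat2 exceeded Bcat1 by 212-fold, and per kilobase of coding length by 102-fold.

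Ratios of this kind were formed within each library for 14 pairs of genes, so that library size cancels. In each pair the same gene was the higher in 4 of 4 libraries, and each had an exact two-sided sign-flip permutation p of 0.13 (rounded), also 0.13 after Benjamini-Hochberg adjustment over the 14 pairs. That is the smallest p that 4 libraries allow, so no pair could pass 0.05. Folds below are per kilobase of exon unless stated, and the value per kilobase of coding length is given where it differs by more than 1.5 times.

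The subunits of the branched-chain dehydrogenase were far from equal in transcript level. Bckdha, the E1 alpha subunit that carries the regulatory phosphorylation site (chromosome 7, 25629946 to 25658981), had 4881, 4176, 3432 and 4922 counts, or 339, 300.01, 326 and 320.5 CPM. Bckdhb, its E1 beta partner (chromosome 9, 83925145 to 84124240), had 268, 261, 231 and 341 counts, or 18.6, 18.8, 22.0 and 22.2 CPM. The levels of the partners did not come near each other in any library.

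Bckdha exceeded Bckdhb by 15.0-fold, between 13.7-fold and 17.3-fold in single libraries (log2 ratio 3.91 ± 0.15, SD, n = 4). Dbt, the E2 subunit that transfers the acyl group, had 47.5, 41.1, 50.1 and 47.8 CPM and was 12.2-fold below Bckdha, or 7.46-fold per kilobase of coding length. Dld, the E3 subunit that other dehydrogenase complexes use as well, stood at 40.6 ± 2.19 CPM per kilobase (SD, n = 4), between Bckdha and Dbt (13.9 ± 1.151 CPM per kilobase). E1 alpha thus stood above each of the other 3 subunits.

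Exon bases shared with listed genes on the opposite strand limit the levels of some members. They made up 18.6% of Aldh6a1, 15.9% of Bcat2 and 12.6% of Oxct1. The level of Bckdha carries the largest such limit of annotation. In GENCODE M21, 61.7% of its exon bases are shared with a long transcript of B3gnt8 on the opposite strand, and the libraries do not keep strand. B3gnt8 had 82, 63, 40 and 74 counts. In RefSeq on GRCm38.p6 the 2 genes do not overlap, with B3gnt8 at 25627600 to 25629492 and Bckdha at 25629852 to 25658782. A setting chosen after seeing the data kept all counts of Bckdha but took only its unshared exon bases as the length. Bckdha would then exceed Bckdhb by 39.2-fold and Dbt by 31.8-fold, in the same direction. These folds hold only if no counted read fell on the shared bases, which was not tested.

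The bases before the first start site of Bckdhb are shown as an example with a match to CCCCNCCC, a GC-rich run of the kind that Krüppel-like factors bind, which is in capitals. The sequence is from RefSeq on GRCm38.p6, 5′ to 3′ on the strand of the gene. That of Bckdha is not shown, because GENCODE M21 starts the gene 220 bases before the start site in the RefSeq table of sequences. That start site lies inside the RefSeq span given above, and 220 of the 250 bases before it are exon in GENCODE.
Bckdhb first start, chr9:83924887-83925136, plus strand: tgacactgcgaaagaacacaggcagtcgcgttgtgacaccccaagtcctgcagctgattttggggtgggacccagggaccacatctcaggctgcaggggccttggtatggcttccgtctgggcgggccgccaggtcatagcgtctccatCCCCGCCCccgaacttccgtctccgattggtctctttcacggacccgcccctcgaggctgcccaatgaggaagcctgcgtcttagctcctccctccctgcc
Windows of 300 bases, from 250 before to 50 after the start site, were searched on both strands for 6 motifs. These were AAGGTCA, bound by nuclear receptors such as Esrra, then TTATGTAA and TTATGCAA, the E-box CACGTG, the palindromic glucocorticoid response element, and CCCCNCCC. The table held 32 windows for 25 of the 28 genes, and Dbt, Acat1 and Mut had no entry. CCCCNCCC matched 16 of the 32 windows (50%) and 33.2% of 32851 windows of all genes. It matched at -101 to -94 from the first start of Bckdhb and not in the window of Bckdha. CACGTG matched only the window of Mccc2 (7.15% of all windows) and TTATGTAA only 1 window of Mmaa (0.938% of all windows). The other 3 motifs matched none of the 32 windows, against 4.72% of all windows for AAGGTCA, 0.743% for TTATGCAA and 0.00913% for the glucocorticoid response element. CCCCNCCC can overlap itself, and runs of it did so in Ivd, Hibch and Bdh1. A ratio of observed to expected CpG of at least 0.6 was reached by 59.4% of these windows and by 35.8% of all windows. Here and for the motifs, the set of all windows was not limited to genes detected in these hearts. Matches describe letters in these windows and show no binding.

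Both regulators of the dehydrogenase were well detected. Bckdk, the inactivating kinase, had 113, 108, 117 and 119 CPM, and Ppm1k, the activating phosphatase, had 74.0, 68.6, 73.3 and 81.6 CPM. Their coefficients of variation between hearts were under 8%, at 4.302% for Bckdk and 7.22% for Ppm1k. The highest library exceeded the lowest by 1.10-fold for Bckdk and by 1.19-fold for Ppm1k. The kinase exceeded the phosphatase by 2.51-fold per kilobase of exon (log2 ratio 1.33 ± 0.06, SD, n = 4) and by 1.39-fold per kilobase of coding length. The order held in 4 of 4 libraries under both lengths, while its size depends on how much untranslated sequence is counted.

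The leucine branch was led by its first step and summed to 410, 412, 406 and 408 CPM, a spread of 0.635%. Ivd, isovaleryl-CoA dehydrogenase (chromosome 2, 118861954 to 118882909), had 242, 252, 237 and 235 CPM and was the only 1 of the 27 tested members that was lowest in library 4. Next comes methylcrotonyl-CoA carboxylase, a biotin enzyme of alpha (Mccc1) and beta (Mccc2) subunits. Mccc1 had 47.8, 47.2, 53.8 and 50.7 CPM, and Mccc2 had 56.8, 56.3, 58.8 and 58.1 CPM. Mccc1 stood at 0.222 times the level of Mccc2 per kilobase of exon and at 0.680 times per kilobase of coding length, since GENCODE gives Mccc1 10952 exon bases but 2151 coding bases. Auh, the hydratase that follows, stood at 6.31 ± 0.382 CPM per kilobase (SD, n = 4), below both Ivd and Mccc2. Per kilobase of coding length Auh (64.2 CPM per kilobase) was above Mccc2 (34.1) and below Ivd (189.6).

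The isoleucine and valine branches were led by Hsd17b10, an X-linked dehydrogenase of isoleucine breakdown that also serves mitochondrial tRNA processing. It had 109, 99.0, 109 and 116 CPM, or 83.6 CPM per kilobase. The acyl-CoA dehydrogenases of the 3 amino acids ranked with Ivd first, 3.20-fold above Acadsb of isoleucine and 4.70-fold above Acad8 of valine. Acad8 had 36.9, 40.02, 37.7 and 39.7 CPM. Further along the valine branch, Hibch, which frees hydroxyisobutyrate from CoA, had 33.9, 29.8, 30.4 and 33.9 CPM. Hibadh, which oxidises it, had 101, 106, 102 and 106 CPM, 1.93-fold above Hibch per kilobase of exon and 3.74-fold per kilobase of coding length. Aldh6a1, the semialdehyde dehydrogenase that ends the valine branch, had 89.9, 85.3, 94.8 and 96.1 CPM. Each of these 6 genes kept within 1.18-fold between its highest and lowest library.

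Propionyl-CoA from isoleucine and valine is carboxylated by Pcca and Pccb, epimerised by Mcee and rearranged by the cobalamin enzyme Mut. The 6 genes of this route summed to 313, 331, 336 and 339 CPM. Pccb, the beta subunit, had 98.2, 98.9, 102 and 105 CPM, and Pcca, the alpha subunit, had 58.0, 60.3, 63.1 and 60.2 CPM. As in the other carboxylase, the alpha subunit was the lower, at 0.318 times the level of Pccb per kilobase. Mut had 52.4, 59.8, 65.3 and 63.4 CPM, lowest in library 1, and the widest spread of the 6 genes at 9.46% (adjusted p = 0.993, edgeR quasi-likelihood). It stood at 0.418 times the level of Mcee per kilobase (log2 ratio -1.26 ± 0.15, SD, n = 4). In counts with no length Mut was the higher at 1.65-fold, because Mcee is short (956 exon bases against 3786). Mmab, which makes the adenosyl form of cobalamin, had 38.6, 46.4, 39.4 and 42.4 CPM. Mmaa, which loads it onto the mutase, had 29.3, 31.6, 30.3 and 29.5 CPM and stood at 0.442 times the level of Mmab per kilobase.

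Of the thiolases, the mitochondrial one held nearly all reads. Acat1 (chromosome 9, 53580522 to 53610382) had 385, 372, 398 and 399 CPM, while Acat2, the cytosolic form of sterol synthesis, had 31, 20, 17 and 23 counts, or 2.15, 1.44, 1.62 and 1.4975 CPM. Acat1 exceeded Acat2 by 155-fold per kilobase. The level of Acat2 is uncertain, because 65.6% of its longest transcript has a copy of at least 95% identity over at least 100 bases in another gene, including the neighbouring Acat3. Acat3 was listed at 0 counts in 4 of 4 libraries, and alignments that were not unique, 8.13 to 8.48% of the listed reads, were not assigned to genes. How many reads of Acat2 were lost in this way was not tested.

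Ketone body use was dominated by its second step. Oxct1, the succinyl-CoA transferase that activates acetoacetate and that the liver lacks (chromosome 15, 4026383 to 4155344), had 9852, 9729, 7046 and 11458 counts, or 684, 699, 669.5 and 746 CPM. Library 4 was the highest and library 3 the lowest, 1.11-fold apart, and Oxct1 was not called more variable (adjusted p = 0.995, edgeR quasi-likelihood). Bdh1, the mitochondrial enzyme that turns hydroxybutyrate into acetoacetate (chromosome 16, 31422280 to 31458901), had 969, 772, 378 and 944 counts, or 67.2, 55.5, 35.9 and 61.5 CPM. Library 3 lay well below the other 3. Libraries 2 and 3, which held the high Xist counts, were both below libraries 1 and 4. A part of sex in this order was not tested. Oxct1 exceeded Bdh1 by 13.7-fold on average, by 10.7 to 19.6-fold in single libraries, and by 8.60-fold per kilobase of coding length.

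Bdh1 was the member with the widest spread among those of more than 40 counts, 1.87-fold between libraries 1 and 3 with a coefficient of variation of 24.7%. Its adjusted p was 0.187 (edgeR quasi-likelihood, unadjusted p = 0.00226), so it was not called. Without library 2 it was called (adjusted p = 0.0405, where 0.559% of tested genes were), and with no filter on low counts as well (adjusted p = 0.00513, 1.48% called). Without library 3 its adjusted p was 0.994, and over the 12 alternatives it ran from 0.00513 to 0.994. Within libraries 1 and 4 alone the mean of Bdh1 was 64.3 CPM. Hepatocyte markers, whose tissue also makes Bdh1, were at 0.475 CPM in sum in library 3 and between 0.431 and 0.555 CPM in all libraries, while the cardiomyocyte (92631 CPM), endothelial (883 CPM) and adipocyte (3.52 CPM) sums were highest in library 3. Their part in the spread of Bdh1 was not tested.

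The third ketone body gene was at the limit of detection. Bdh2, a cytosolic short-chain dehydrogenase, had 0, 2, 0 and 3 counts. Pooled over the 4 libraries, Bdh1 had 3063 counts and Bdh2 had 5, a ratio per kilobase of 669.6-fold with an exact 95% interval from 287-fold to 2064-fold that covers counting error only.

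The bases before the start of Oxct1 and before both annotated starts of Bdh1 are shown as those of the member with the highest level per kilobase of exon and of the member with the widest spread. They are from the same RefSeq table, and end where the first exon in GENCODE M21 begins, which left out 45 of 250 bases for Oxct1, 17 for the first start of Bdh1 and 5 for the second. Capitals again mark CCCCNCCC on either strand.
Oxct1, chr15:4026178-4026382, plus strand: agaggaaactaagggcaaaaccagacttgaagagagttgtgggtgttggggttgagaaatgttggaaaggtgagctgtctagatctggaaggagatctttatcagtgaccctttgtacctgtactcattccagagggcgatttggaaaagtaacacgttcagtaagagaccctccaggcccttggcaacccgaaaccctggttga
Bdh1 first start, chr16:31422047-31422279, plus strand: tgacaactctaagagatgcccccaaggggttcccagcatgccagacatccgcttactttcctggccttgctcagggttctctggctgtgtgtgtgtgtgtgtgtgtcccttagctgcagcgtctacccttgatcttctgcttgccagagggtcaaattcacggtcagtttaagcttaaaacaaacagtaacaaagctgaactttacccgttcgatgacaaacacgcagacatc
Bdh1 second start, chr16:31428503-31428747, plus strand: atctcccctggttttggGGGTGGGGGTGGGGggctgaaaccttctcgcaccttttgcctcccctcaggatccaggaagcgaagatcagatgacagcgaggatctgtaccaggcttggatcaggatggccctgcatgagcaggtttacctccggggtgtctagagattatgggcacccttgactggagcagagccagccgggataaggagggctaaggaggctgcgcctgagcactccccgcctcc
None of the 6 motifs matched in the window of Oxct1 or of the first start of Bdh1. At the second start of Bdh1, CCCCNCCC matched 3 times, at -233 to -226 and -227 to -220 on the opposite strand and at 14 to 21 past the start site on the gene's strand.

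**Figure D4:**
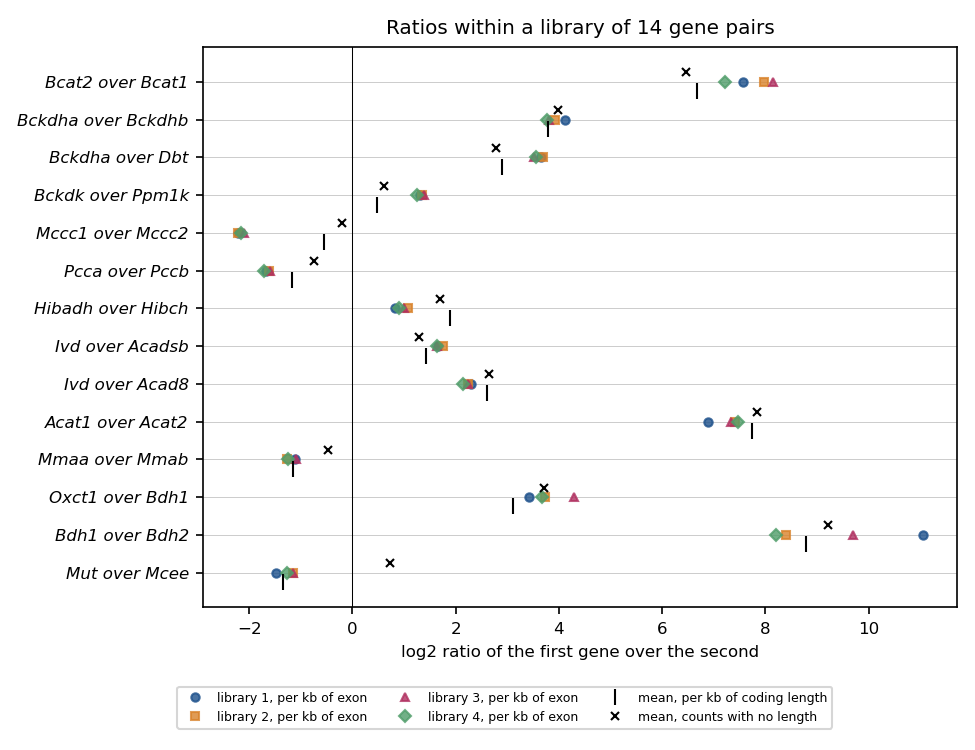
Log2 ratio of the first gene over the second within a library (horizontal axis) for 14 pairs: coloured points give each library per kilobase of exon, bars the mean per kilobase of coding length and crosses the mean of counts with no length. Mut over Mcee is the only pair whose crosses and points lie on opposite sides of 0, and libraries lie close together except where the second gene had few counts and for Oxct1 over Bdh1.

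Around these members, 56 further genes of the pathway were listed, and 53 of them were tested. Of these, 1 was called more variable (1 of 53, where 0.445% of all tested genes were called), and their median log2 variance ratio was -0.14. The called gene was Glul, glutamine synthetase. Glul had 753, 413, 825 and 777 CPM, with library 2 far below the other 3 (adjusted p = 0.0439, edgeR quasi-likelihood). Without library 2 its adjusted p was 0.996 and without library 3 it was 0.0573, and over 12 alternatives it ran from 8.74e-06 to 0.996. Got1 (286 ± 11.8 CPM per kilobase) and Got2 (285.7 ± 13.95 CPM per kilobase), listed with Glul as amino group partners, were steady (SD, n = 4).

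Slc16a1, the monocarboxylate transporter that carries ketone bodies and lactate, stood at 44.0 ± 0.953 CPM per kilobase (SD, n = 4). The testis forms of the transferase, Oxct2a and Oxct2b, chosen after their values were seen, had at most 1 count in any library.

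Of the transport genes, Slc25a44, the mitochondrial carrier of branched-chain amino acids, had 29.6, 31.3, 26.1 and 28.6 CPM, and Slc3a2, a subunit of the plasma membrane carrier, stood at 10.015 ± 0.799 CPM per kilobase (SD, n = 4). Of the cofactor genes, Lias, the lipoate synthase, stood at 6.32 ± 0.4999 CPM per kilobase. Tcn2 (35.0 ± 3.93 CPM per kilobase) and Mmachc (28.9 ± 2.28 CPM per kilobase) led the 8 genes of cobalamin handling. Of the shared downstream enzymes, Acaa2 stood at 404 ± 18.5 and Hadha at 194 ± 11.6 CPM per kilobase, and of the citric acid cycle neighbours, Ogdh stood at 670.4 ± 33.5 and Suclg1 at 65.0 ± 3.48 CPM per kilobase.

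The listed regulators were detected in each heart. Esrra (36.4 ± 2.30 CPM per kilobase) and Ppara (28.8 ± 3.56 CPM per kilobase), nuclear receptors of oxidative metabolism, led them (SD, n = 4). Klf15, a Krüppel-like factor known to induce genes of branched-chain amino acid breakdown, had 80.6, 49.4, 71.8 and 78.0 CPM. Library 2 was the lowest, as for Glul, but Klf15 was not called (adjusted p = 0.299, edgeR quasi-likelihood). Among the members, Bcat2 was at 110.2 CPM in library 2 and between 107 and 112 CPM in the other libraries. Bckdha, at 300.01 CPM, was among the 13 of 27 tested members lowest in library 2 (48.1%), beside 30.7% of all tested genes. A link to Klf15 was not tested.

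**Figure D5:**
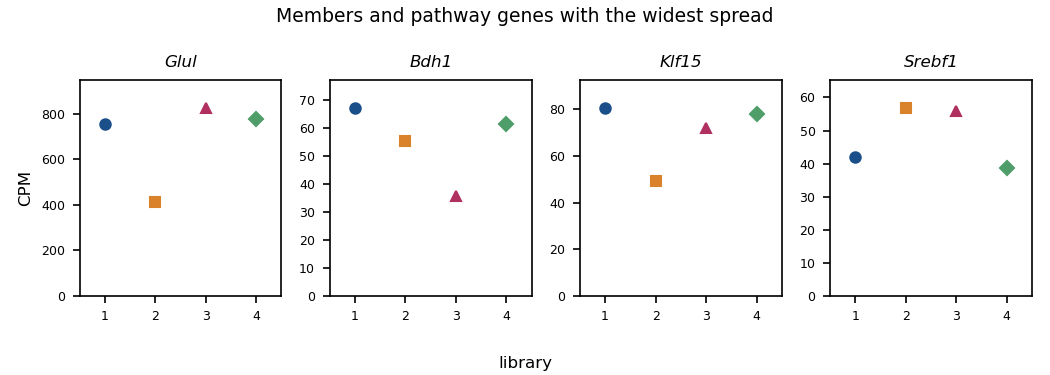
CPM (vertical axis from 0, a scale for each gene) in libraries 1 to 4 of the 4 members and pathway genes with an unadjusted p under 0.01 for spread, of which Srebf1 was chosen after its values were seen. Glul and Klf15 are lowest in library 2 and Bdh1 in library 3, and of the 4 only Glul (adjusted p = 0.0439, edgeR) was called.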

How the data were processed

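Raw counts of reads per gene symbol, as the authors deposited them, were used for 4 libraries. Per the labels' protocols, these were single-end libraries without strand from poly(A) RNA. The submitters' processing notes name HTSeq, edgeR, DESeq, TopHat2 2.0.10, TopHat, Bowtie2 and mm10, with no role. Which annotation was counted, and in which mode, is not given in the sources used here. The 5 rows that name no gene were left out; ambiguous reads were 0.812 to 0.830% and non-unique alignments 8.13 to 8.48% of listed reads. Members, lists and pairs were chosen with earlier results of these data known.

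CPM used plain library totals. Lengths and positions came from GENCODE M21 (GRCm38), which matched 28 of 28 members and 98.4% of all symbols; copies were sought with blastn 2.17.0. Spread between libraries was tested with edgeR 4.0.16 (R 4.3.3; intercept only, TMM factors, robust prior): each gene's quasi-dispersion over the trend was set against an F distribution on 3 and 7.43 degrees of freedom, for genes of at least 1 CPM. Pair ratios used counts plus 0.5. Named genes were the members, and of the pathway list the called genes, the 2 highest per group and 5 fixed names; others are marked. Some genes that this rule names are not reported here. Alternatives were other scaling, filters, priors, tools (limma 3.58.1, DESeq2 1.42.0), lengths, pseudocounts and fewer libraries. Protein sequences were not used here.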

Additional observations from a re-analysis of the deposited data

Results flagged for a closer look

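Among 51 sets of 4 values examined (CPM of each gene, sums by role and the 14 pair ratios), 1 held a library far from the others by Dixon's criterion at 95%. The log2 ratio per kilobase of Ivd over Acadsb was 1.76 in library 2 and between 1.64 and 1.66 in libraries 1, 3 and 4. Chance alone flags about 1 in 20 such sets. In CPM, Ivd was highest in library 2 (252 CPM) and Acadsb lowest there (96.8 CPM), each by a small margin.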

How the results depend on the processing

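No paired analysis was possible because the series holds 1 group. The 0 called members became 1 (Bdh1) with no filter on low counts and 0 to 1 when single libraries were left out. The 1 called pathway gene became 2 with no filter (Glul and Klf15), 0 at a mean of at least 5 CPM (Glul, adjusted p = 0.0822), 0 with a prior that was not robust (0.176), 0 without libraries 2 and 3 (0.990) and 0 to 1 when single libraries were left out, all by edgeR. With fewer libraries the test has fewer degrees of freedom. The median level of the 28 members, 13.8 CPM per kilobase of exon, was 17.2 per kilobase of the longest transcript and 55.6 per kilobase of coding length, by the shorter lengths. With Rn45s, the ribosomal RNA precursor, left out of the total it was 15.8 and the members summed to 3490 CPM rather than 3045 CPM, by the smaller total. Mut over Mcee turned from a log2 ratio of -1.26 to 0.73 in counts with no length. The other 129 alternative values of the 14 pairs kept their direction. Counts of 31 or fewer limit Bcat1, Acat2 and Bdh2.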
